A study of Homo sapiens with 4 samples.

Results

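The loci of 8 genes were examined in BCPAP cells: CDKN1A, MDM2, GADD45A, FAS and the 4 TRAIL receptor genes TNFRSF10B, TNFRSF10C, TNFRSF10D and TNFRSF10A, which neighbour each other in that order. They were taken as 5 windows on the hg19 build, and every accessible region overlapping a window was a member. The windows were chromosome 6 from 36625000 to 36675000 (CDKN1A), chromosome 12 from 69180000 to 69260000 (MDM2), chromosome 1 from 68130000 to 68175000 (GADD45A), chromosome 10 from 90730000 to 90795000 (FAS) and chromosome 8 from 22855000 to 23105000 (the TNFRSF10 cluster). They held 125 of the 373425 regions of chromosomes 1 to 22 and X. BCPAP is an established human thyroid cancer cell line, profiled by ATAC-seq, in which a transposase tags open DNA and the reads pile up at accessible sites. The groups were 2 libraries of untreated cells and 2 libraries of cells treated with 5-azacytidine, a nucleoside drug that is built into nucleic acids, inactivates the DNA methyltransferases and so reduces CpG methylation. The labels give no dose or duration (the names of the deposited files carry a concentration that no label repeats), name no vehicle for the untreated cells, and do not say that the libraries came from separate cultures, so the spread within a group may be technical.

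The transcription factor p53 is activated by DNA damage and other stress and binds response elements at genes that stop the cell cycle or start cell death. CDKN1A encodes p21, an inhibitor of cyclin-dependent kinases. GADD45A is a stress-induced partner of cell cycle and repair proteins, and MDM2 encodes the ubiquitin ligase that returns p53 to low levels. FAS encodes the receptor of FAS ligand, and TNFRSF10A (DR4) and TNFRSF10B (DR5) encode the receptors through which TRAIL starts apoptosis. TNFRSF10C (DcR1) lacks a death domain and TNFRSF10D (DcR2) has a truncated one, so that both act as decoys for TRAIL. RNA and DNA methylation are not part of these files, so the values below describe accessibility only.

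Promoter sequences are shown first, because p53 elements lie close to alternative starts of members. The RefSeq promoter table (GRCh38.p14) held 8 promoters of 3 members, CDKN1A, MDM2 and FAS. A p53 full site was taken as 2 abutting half-sites of the p53 consensus, 20 bases in all, with up to 2 mismatches and none at the invariant C and G of either half-site. This tolerance was chosen with the known MDM2 element in view. The consensus is its own reverse complement, so 1 search covers both strands. A match was present in 2 MDM2 promoters, which overlap and share it, in 1 FAS promoter, and in 100 of 35116 promoters of 300 bases (0.285%). The 250 bases before the start are given for these starts of MDM2 and FAS, with the matching site in capitals, and for CDKN1A, where this stretch held no match:
MDM2, chr12:68808767-68809016, plus strand: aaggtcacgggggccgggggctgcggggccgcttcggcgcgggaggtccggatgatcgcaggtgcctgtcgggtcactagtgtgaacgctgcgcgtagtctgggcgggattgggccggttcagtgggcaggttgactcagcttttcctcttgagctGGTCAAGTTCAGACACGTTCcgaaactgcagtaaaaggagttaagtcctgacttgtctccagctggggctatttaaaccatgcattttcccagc
FAS, chr10:88991181-88991430, plus strand: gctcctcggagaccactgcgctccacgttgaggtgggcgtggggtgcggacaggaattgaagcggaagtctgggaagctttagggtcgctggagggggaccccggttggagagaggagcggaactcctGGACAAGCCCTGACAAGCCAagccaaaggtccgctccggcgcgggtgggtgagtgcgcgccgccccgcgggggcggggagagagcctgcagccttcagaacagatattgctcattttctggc
CDKN1A, chr6:36678464-36678713, plus strand: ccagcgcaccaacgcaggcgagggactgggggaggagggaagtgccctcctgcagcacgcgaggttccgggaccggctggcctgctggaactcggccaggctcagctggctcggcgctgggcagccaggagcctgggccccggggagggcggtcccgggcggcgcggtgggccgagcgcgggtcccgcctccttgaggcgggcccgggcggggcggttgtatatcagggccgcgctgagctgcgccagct
The MDM2 site began 94 bases before that start and the FAS site 122 bases before its start, each with 2 mismatches. Bases beyond these 300-base promoters were not searched. The lack of a match at CDKN1A therefore says nothing about sites farther from the start. CpG dinucleotides, the target of the methylation that 5-azacytidine lowers, numbered 29 in the CDKN1A promoter, 21 and 22 in these MDM2 and FAS promoters, 39 in each of the 2 MDM2 promoters without a p53 match, and 18 and 14 in the other 2 FAS promoters. The median over all promoters was 14, with 4 and 28 at the quartiles. No hg19 annotation or sequence was used, so these promoters were not placed within the regions below.

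The 4 libraries differed in how high their peaks were. Over the 105414 regions shared by every list, untreated replicates 1 and 2 had a median summit coverage of 23 and 18, and the treated replicates one of 11 and 16, with treated replicate 1 lowest. Summit coverage is the number of reads stacked at a peak's highest point, recovered from the fold enrichment in the authors' lists. Values are given as coverage and also as relative coverage, which is the coverage divided by that library's median over these shared regions. The lowest coverage listed was 4 in every library, which is a relative coverage of 0.17 and 0.22 in the untreated and 0.36 and 0.25 in the treated libraries. For a region listed in all 4 libraries, the lowest possible relative coverage is therefore higher in the treated libraries. How far this limit enters the ratios of weak regions was not tested. Percentiles, where given, are taken among all shared regions and among those of like strength. Regions given a percentile were picked as the strongest or as the lowest or highest ratio of their window. For the lowest and highest ratios, an extreme percentile follows in part from that choice. Like strength means the same class of mean relative coverage: under 1, of 1 to 2, or of 2 or more. The strongest region of a window means here the shared region whose lowest coverage over the 4 libraries is highest.

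The windows were dense in accessible regions, and most of the strong ones were present with and without 5-azacytidine. They held 25.5 regions per 100 kb, against 12.7 over the spans of all chromosomes. The GADD45A window was densest, with 46.7 per 100 kb, followed by CDKN1A with 32.0, the TNFRSF10 cluster with 24.4, MDM2 with 21.2 and FAS with 15.4. Of the 125 regions, 51 (40.8%) had a peak in all 4 lists, against 28.2% of all regions. The FAS window had the highest share, 7 of 10 regions (70.0%), and the CDKN1A window the lowest, 5 of 16 (31.2%).

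The number of peaks in the windows was similar in both groups. In the 5 windows together, 96 and 102 peaks were listed for the untreated replicates and 99 and 110 for the treated ones, so that the groups overlapped. The means were 99.0 ± 4.24 untreated and 104.5 ± 7.78 treated peaks (SD, n = 2 each), a ratio of 1.06 against 1.14 over all chromosomes. The CDKN1A window held 13 and 12 untreated and 10 and 12 treated peaks, and the MDM2 window 8 and 11 untreated and 14 and 11 treated peaks. GADD45A had 17 and 17 against 17 and 18, FAS 12 and 10 against 11 and 12, and the TNFRSF10 cluster 46 and 52 against 47 and 57. In no window did the treated and untreated libraries separate. The exact two-sided permutation test over the libraries gave p = 0.667 for the 5 windows together, for CDKN1A, for MDM2 and for the TNFRSF10 cluster, and p = 1 for GADD45A and FAS. The smallest p that this permutation test allows with 2 libraries against 2 is 0.333, so it could not reach significance here.

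Few regions appeared or disappeared, in these loci as over all chromosomes. Gained means here that both treated libraries list a peak and no untreated library does, and lost means the opposite. There were 4 gained regions (3.2% of 125), where 4.21% of all regions were gained. There were 2 lost regions (1.60%), where 3.35% of all regions were lost. Regions listed in 1 untreated and 1 treated library alone, which the treatment does not separate, numbered 16 (12.8%) against 7.85% of all regions, and 12 of them lay in the TNFRSF10 cluster. At a −log10 q of at least 5, 1 region was gained and 4 were lost of 64. With 1 library left out, 1 requirement of the definitions of gained and lost falls away. Then 6 to 20 regions were gained, 15 without treated replicate 1 and 20 without treated replicate 2. In the same way 5 to 14 were lost, with 14 when untreated replicate 1 was left out and 9 when treated replicate 2 was. Shares over all regions are not given at that q or with a library left out, so these counts stand without a background. Gained regions reached a coverage of 5 to 10 and lost regions 5 to 9, while regions in all 4 lists reached 178. A further 40 regions were in 1 list only, with a coverage of 4 to 10, and 16 of these were in treated replicate 1.

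**Figure D1:**
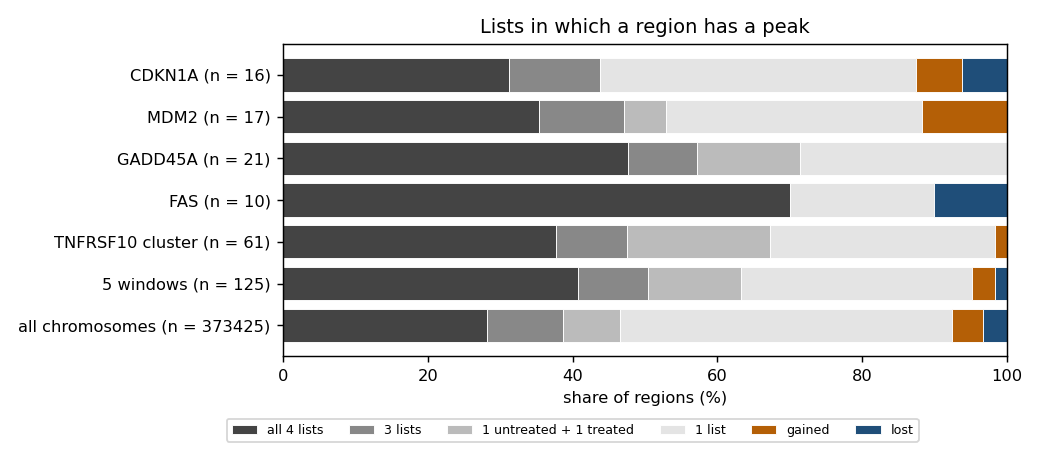
Horizontal bars give the share of regions (percent, x axis) by the lists that hold a peak there, for each window, the 5 windows together and all chromosomes, with the number of regions in parentheses. Gained and lost regions take 3.2% and 1.60% of the 5 windows and 4.21% and 3.35% of all regions, and regions of all 4 lists take 40.8% against 28.2%.

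Where a region was found in all 4 lists, its coverage was mostly lower after 5-azacytidine, as it was across the genome. Both treated libraries lay below both untreated libraries in 31 of 51 shared regions (60.8%), against 47.6% of all shared regions. They lay above in 2 of 51 (3.92%), against 4.39%. The median ratio of treated to untreated mean coverage was 0.636 in the windows and 0.684 over all shared regions. On relative coverage, both treated libraries were below both untreated libraries in 12 of 51 regions (23.5%), where 22.2% of all shared regions were. They were above in 14 of 51 (27.5%), where 27.2% of all were. The median log2 ratio of relative coverage was -0.059 in the windows and 0.061 over all shared regions. The 51 regions as a set therefore lay close to the background on the relative scale, and the values below concern single regions and windows.

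Strong and weak regions differed in their ratios, in the windows as in the genome. Among the 12 shared window regions with a mean relative coverage of 2 or more, 9 (75%) had a lower treated than untreated mean relative coverage, as had 67.7% of all shared regions that strong. The median log2 ratio was -0.17, against -0.18 for the 20783 such regions of all chromosomes. Among the 17 window regions with a mean relative coverage under 1, the median was 0.40 against 0.29 for all. In the 22 window regions between these limits it was -0.11 against -0.056.

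**Figure D2:**
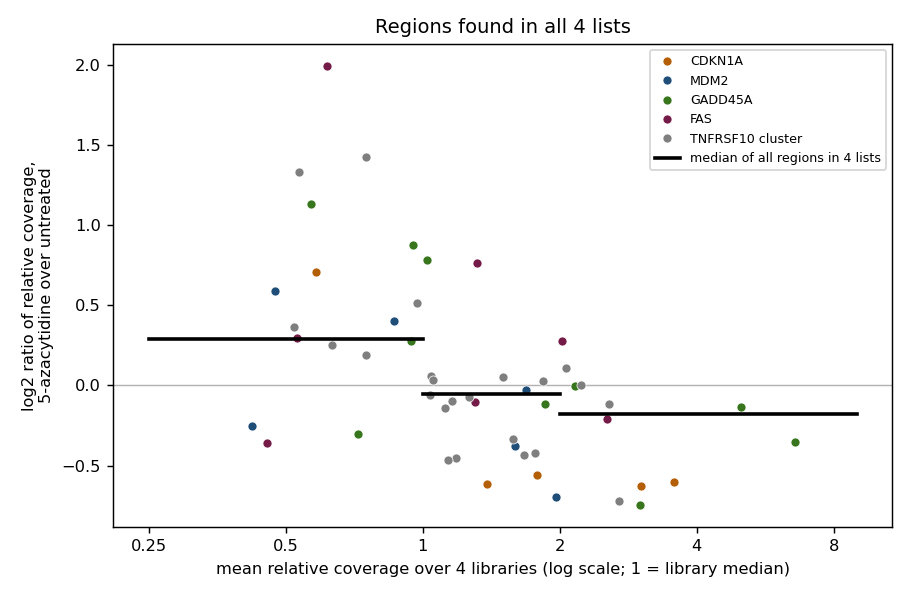
Each point is 1 of the 51 window regions found in all 4 lists. The x axis gives mean relative coverage over the 4 libraries (log scale, 1 is the library median), the y axis the log2 ratio of relative coverage of treated over untreated cells, and black lines the median of all shared regions of that strength (0.29, -0.056 and -0.18). CDKN1A regions above the library median lie below the lines, and a FAS region of low coverage lies highest, at 1.99.

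At CDKN1A, the p21 gene, the 4 strongest shared regions all had lower coverage in both treated libraries, on both scales. This order was common: 47.6% of all shared regions had it by coverage. By relative coverage, 41.3% of all shared regions with a mean relative coverage of 2 or more had it, and 26.8% of those of 1 to 2. The strongest, on chromosome 6 from 36646189 to 36647165, had a summit coverage of 106 and 72 in untreated and 32 and 44 in treated replicates 1 and 2. Both treated values lay below both untreated values. The ratio of means was 0.427 by coverage and 0.657 by relative coverage, and treated replicate 2 alone gave 0.639 on the relative scale. The log2 ratio of relative coverage, -0.61, was above that of 9.64% of all shared regions and of 13.1% of those of like strength. Between 36634733 and 36635337 the coverage was 66 and 80 untreated and 24 and 41 treated, with a relative ratio of 0.649. The region from 36647534 to 36649060 had 54 and 34 against 20 and 17, and the region from 36668969 to 36669495 had 40 and 29 against 11 and 19. Their relative ratios were 0.680 and 0.653, so that the ratios of group means in the 4 regions spanned 0.649 to 0.680. The treated libraries differed within a region. At 36647534 the relative coverage was 1.82 and 1.06 in treated replicates 1 and 2, with an untreated mean of 2.12. The remaining shared region, from 36642660 to 36643203, was weak, with 14 and 5 untreated and 7 and 13 treated, and its groups overlapped by coverage. Its relative coverage was higher in both treated libraries, with a ratio of 1.63.

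Regions of the CDKN1A window that were not in all lists were low. A lost region from 36633967 to 36634699 reached 9 and 5 in the untreated libraries. It ended 33 bp before the strong region at 36634733, and it is no longer separate from that region when peaks up to 150 bp apart are merged. A gained region from 36660804 to 36661342 had 7 and 5 in the treated libraries, with summits 39 bp apart. The region from 36625757 to 36626304 had 16 and 16 untreated, 7 in treated replicate 1 and no listed peak in treated replicate 2. The region from 36650040 to 36651593 had 9 and 9 untreated, no listed peak in treated replicate 1 and 15 in treated replicate 2, so that the treated libraries differed in both directions. The RefSeq table places SRSF3 and RAB44 next to CDKN1A on either side, and regions were not assigned to a gene.

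At MDM2, the p53 inhibitor, 1 region was lower in treated cells on both scales and the next pair of strong regions differed less. The shared region with the highest coverage lay on chromosome 12 from 69188590 to 69189107. It had 53 and 46 untreated and 22 and 16 treated, so that the groups did not overlap, and the relative ratio was 0.617. Its log2 ratio of relative coverage was above that of 6.78% of all shared regions and of 9.12% of those of like strength. Treated replicate 2 was the lower one there, at 0.412 of the untreated mean on the relative scale, against 0.823 for treated replicate 1. The region from 69201195 to 69202224 had 33 and 39 against 16 and 21, with overlapping relative coverage. Its neighbour 209 bp away, from 69202434 to 69202955, had 40 and 30 against 14 and 33, and the groups overlapped on both scales. The relative ratios of this pair were 0.768 and 0.979.

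The MDM2 window held 2 of the 4 gained regions. The first, from 69215530 to 69216048, had a coverage of 6 and 6 in the treated libraries with summits 19 bp apart. The second, from 69238024 to 69238904, had 7 and 7, but its closest summits were 381 bp apart, so the peaks share less than 50% of their width. Neither untreated list lacked a peak number at these places, which would mark a peak removed before deposit. The weak region from 69195252 to 69195811 had 11 and 5 untreated and 7 and 8 treated. The direction of its mean depends on the scale, with a ratio of 0.938 by coverage and 1.5 by relative coverage. The region from 69223903 to 69224458 had 15 and 15 against 12 and 14. Both treated libraries were lower there by coverage, with a ratio of 0.867, and higher by relative coverage, with a ratio of 1.32. The neighbours of MDM2 in the RefSeq table are SLC35E3 and CPM.

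GADD45A had the strongest region of the 5 windows. The region on chromosome 1 from 68150610 to 68151133 had a summit coverage of 178 and 126 in untreated and 72 and 80 in treated replicates 1 and 2. The treated libraries lay below the untreated ones by coverage, with a ratio of 0.5, and by relative coverage, with a ratio of 0.783. The next, from 68151505 to 68152751, had 121 and 94 against 50 and 80, and a relative ratio of 0.911. A region from 68153303 to 68153809 had 39 and 39 against 20 and 28, with overlapping relative coverage. The lowest treated to untreated ratio of the window was at its far end, from 68174245 to 68174756, with 78 and 74 untreated against 19 and 44 treated. The relative ratio there was 0.597, the lowest of the 51 regions, and was 0.460 in treated replicate 1 and 0.733 in treated replicate 2. Its log2 value was above that of 5.56% of all shared regions and of 6.56% of those of like strength. GNG12 is the next gene on that side in the RefSeq table, and SERBP1 on the other.

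Several weaker GADD45A regions had similar coverage in both groups. The region from 68165418 to 68166929 had 13 and 14 untreated and 12 and 22 treated, and that from 68172415 to 68173219 had 18 and 13 against 14 and 21. Groups overlapped by coverage in both, while relative coverage was higher in both treated libraries, with ratios of 1.84 and 1.72. The region from 68154291 to 68155272 had 10 and 5 against 11 and 9. Its relative ratio of 2.19 was the highest of this window, but the highest summits of the 4 lists were spread over 482 bp, so they may not mark 1 site. No region of the window was gained or lost.

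In the FAS window the strongest region was lower in both treated libraries, with a higher treated to untreated ratio than at CDKN1A. A weak region was higher in both treated libraries. The strongest, on chromosome 10 from 90749778 to 90751776, spanned 1999 bp and had 64 and 48 untreated and 25 and 39 treated. The groups did not overlap on either scale, and the ratio was 0.571 by coverage and 0.864 by relative coverage. The region from 90738833 to 90739382 had 5 and 5 in the untreated and 10 and 17 in the treated libraries. It was 1 of 2 regions of the 51 (3.92%) where both treated libraries were above both untreated libraries by coverage, against 4.39% of all shared regions. The ratio was 2.70 by coverage and 3.98 by relative coverage, the highest relative ratio of the 51, and the region was named for it. Its log2 ratio of relative coverage, 1.99, was above that of 99.8% of all shared regions and also of 99.8% of those of like strength. Summits of the 4 lists lay within 50 bp of each other. Each treated library alone was above the untreated mean by coverage, 2.00-fold in replicate 1 and 3.40-fold in replicate 2. The untreated peaks were near the lowest coverage listed, so the region is weak and its ratio rests on few reads.

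Other FAS regions were mixed. The region from 90734382 to 90735586 had 22 and 18 untreated and 20 and 24 treated, with a relative ratio of 1.70, and lay 3246 bp before the higher region. The region from 90753597 to 90754183 had 12 and 9 against 6 and 4, a ratio of 0.476 by coverage, and overlapped on the relative scale. The region from 90782379 to 90783065 had 25 and 29 against 16 and 17, and that from 90791746 to 90792261 had 42 and 33 against 22 and 39. A lost region from 90789484 to 90790012 had 7 and 8 in the untreated libraries. The numbering of peaks in treated replicate 1 skips between its nearest listed peaks, which end at 90782970 and start at 90791746. A peak called in that gap may have been taken out of the list, but its place in the gap is not known. The RefSeq neighbours of FAS are ACTA2 and CH25H.

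The TRAIL receptor cluster had 61 regions, of which 23 were in all 4 lists. Both treated libraries were below both untreated libraries by coverage in 13 of the 23 (56.5%, against 47.6% of all shared regions). By relative coverage they were below in 3 (13.0% against 22.2%) and above in 4 (17.4% against 27.2%). Of the 61 regions 12 were listed in 1 library of each group (19.7% against 7.85%), and 1 was gained (1.64% against 4.21%). Its median log2 ratio of relative coverage was 0.0023, against -0.61 in the CDKN1A window, -0.14 in MDM2, -0.060 in GADD45A and 0.28 in FAS. With 5 to 23 shared regions per window these medians are descriptions, and the difference between windows was not tested. The strongest region of the cluster by its lowest library, on chromosome 8 from 22932081 to 22933349, had 65 and 45 untreated and 26 and 41 treated. Its relative ratio was 0.925, with overlapping groups.

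In 3 shared regions of the cluster both treated libraries were lower on both scales. The one with the lowest ratio, from 23034211 to 23035293, had 78 and 60 in untreated and 25 and 29 in treated replicates 1 and 2, and the groups did not overlap on either scale. The ratio was 0.391 by coverage and 0.608 by relative coverage, and treated replicate 2 alone gave 0.539. The log2 value of the relative ratio was above that of 6.19% of all shared regions and of 7.58% of those of like strength. The untreated coverage of this region was the highest of the cluster. The region from 22856730 to 22857970 had 40 and 32 against 17 and 20, with a relative ratio of 0.795. The region from 23103594 to 23104657 had 47 and 36 against 16 and 25, with a relative ratio of 0.746. Both lie near the ends of the window. The only gained region of the cluster, from 23038349 to 23039483, lay beyond the region at 23034211. That region had a coverage of 10 and 8 in the treated libraries, the highest of the 4 gained regions, with its closest summits 25 bp apart, and held 1 peak of treated replicate 1 and 3 of treated replicate 2. Neither untreated list had a peak or a missing peak number there.

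The region of the cluster with the highest ratio, from 22907356 to 22907874, had 11 and 6 untreated and 13 and 16 treated. Both treated libraries were above both untreated libraries by coverage, with a ratio of 1.71, and by relative coverage, with a ratio of 2.69, above 98.5% of all shared regions and 97.6% of those of like strength by its log2 value. A region from 22878556 to 22879094 had 23 in treated replicate 2 but 7 in treated replicate 1, 7 in untreated replicate 1 and none in untreated replicate 2. The widest region, from 23081115 to 23083246, had 39 and 17 untreated and 8 and 19 treated, so the groups overlapped. No region of the cluster was lost. RHOBTB2 and CHMP7 flank the 4 receptor genes in the RefSeq table, so regions near the ends of the window may belong to them.

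**Figure D3:**
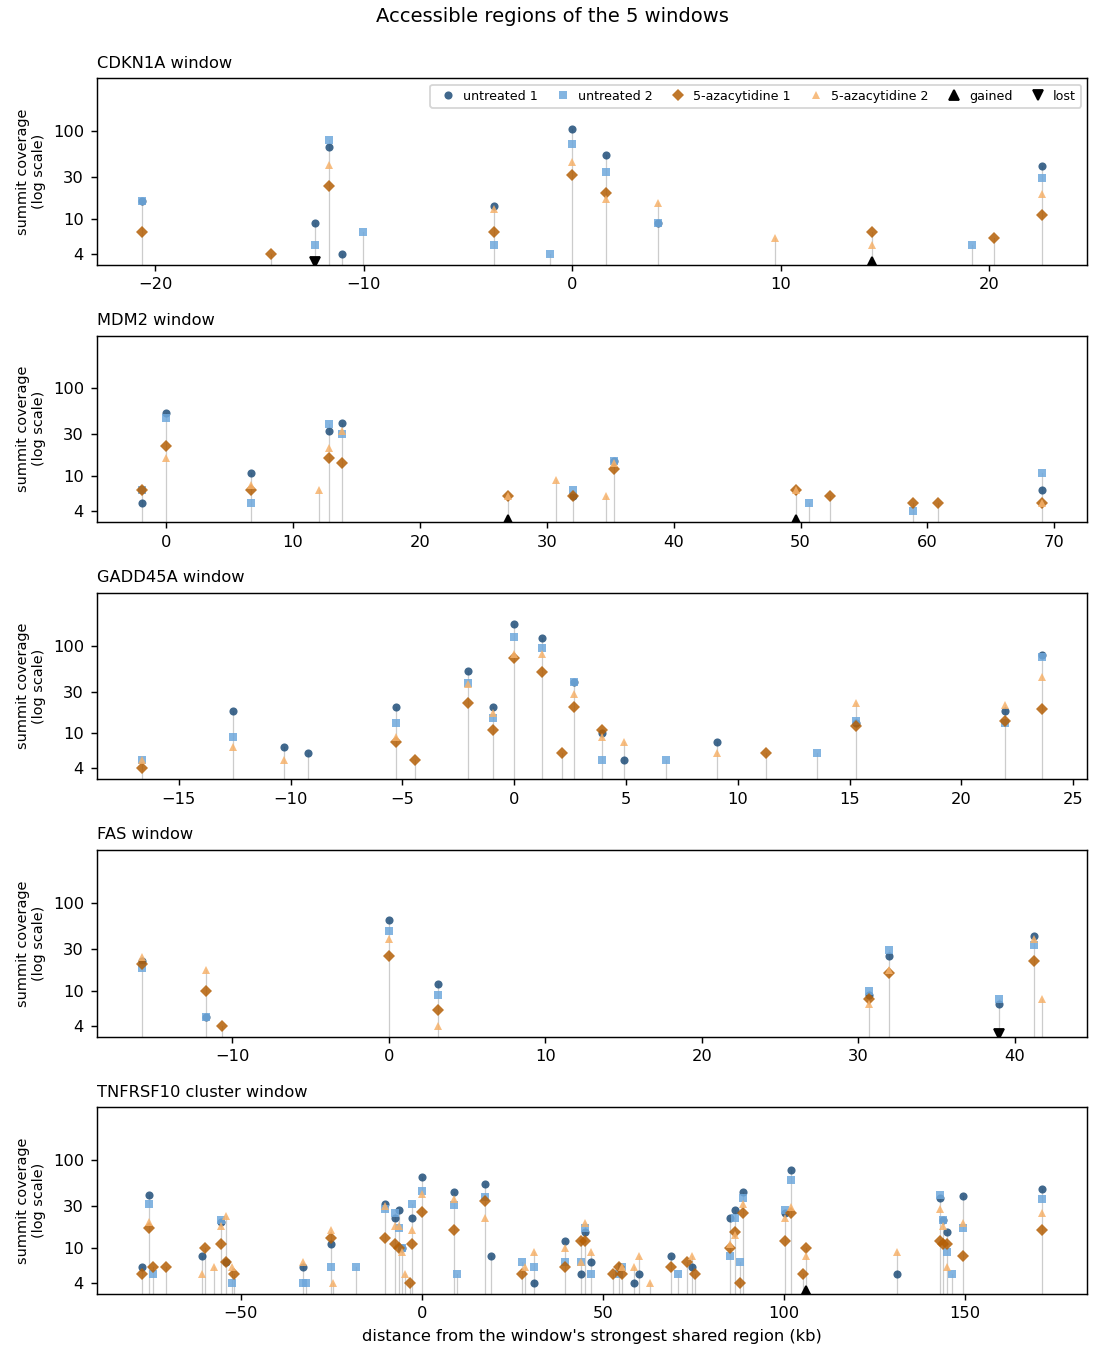
Each panel is 1 window, with distance from the strongest shared region (highest lowest coverage over the 4 libraries) on the x axis (kb) and summit coverage on a log y axis, and 1 marker per library at each region. Black triangles at the base mark gained (up) and lost (down) regions. In the CDKN1A panel the treated markers (orange) lie below the untreated markers (blue) at the 4 strongest shared regions, and gained and lost regions are low, with coverage of 5 to 10.

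**Figure D4:**
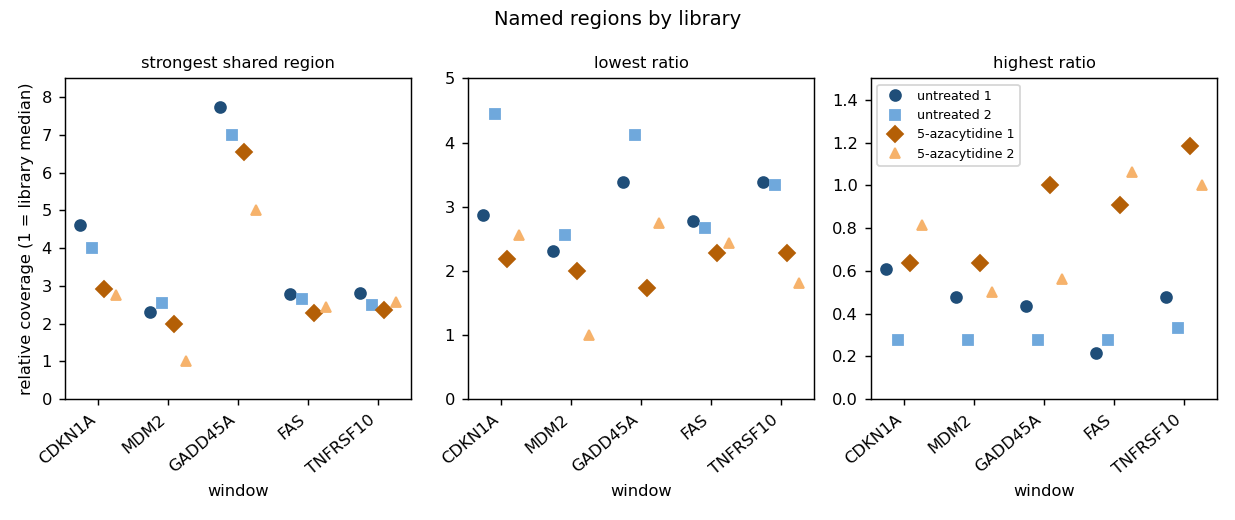
Relative coverage (y axis, 1 is the library median, linear axes with a scale of their own in each panel) is shown by library for the strongest shared region of each window, and for the regions with the lowest and highest treated to untreated ratio among those whose groups do not overlap. At CDKN1A the strongest region has 4.61 and 4.0 untreated and 2.91 and 2.75 treated, and the FAS region of the right panel has 0.22 and 0.28 untreated and 0.91 and 1.06 treated.

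More shared regions were below the untreated libraries in treated replicate 1, which had the lowest peaks genome-wide, and the part of that library's peak height in the result was not tested. By coverage, 41 of the 51 shared regions of treated replicate 1 and 32 of treated replicate 2 lay below both untreated libraries. By relative coverage the numbers were 20 and 19, with 20 and 18 above both. The same counts for a single treated library are not given over all shared regions, so they do not set these loci apart from the genome. For CDKN1A the relative values of treated replicate 2 alone were 0.639 and 0.701 of the untreated mean in the regions at 36646189 and 36634733, so that the lower values there were present in both treated libraries.

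Other p53 targets, p53 regulators and death receptor signalling genes were listed for the comparison, but they need gene positions on hg19 and were not analysed here. The same holds for markers of thyroid and other cell types.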

How the data were processed

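ATAC-seq libraries of untreated (2) and 5-azacytidine-treated (2) BCPAP cells were used, each with 1 deposited peak list on hg19. Trimmomatic, Bowtie2, Picard and MACS2 are named in the submitters' processing notes, and their versions, settings and any shift of read ends were not given in the sources used here. Nearly all intervals in the deposited lists are 500 bp wide. The peak score in the deposited lists adds up to 1000000 in each file and was not used further. The −log10 p and q values and the fold enrichment in the deposited lists are each peak's own values from the authors' peak caller. The offset column was not used.

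Fold values below 100 steps were whole multiples of 1 step per list (100% within 0.01 of a step). They gave a background coverage of 0.875 to 0.913 and the summit coverage. The number of reads is unknown. Lists held 221110 to 259572 peaks on chromosomes 1 to 22 and X. Peaks sharing at least 1 bp were merged, and a region took the highest coverage of each list. Named regions were, per window, all gained and lost regions, the shared region with the highest lowest coverage, and the regions with the lowest and highest relative ratio among groups without overlap; other regions were named after their values were seen. Members and lists were chosen with earlier results of these data known. No test per region was run, and regions are described, since a peak's fold is its own value within its list; the permutation test over libraries was used for peak numbers. Merging was tested on simulated lists. The work was done in Python 3.11.15 with scipy 1.17.1, pandas 2.3.3 and numpy 2.4.6. Alternatives were equal list lengths, a −log10 q of at least 5, windows widened by 10 kb, other merging rules, relative coverage, omission of each library and the replicate block.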

Additional observations from a re-analysis of the deposited data

How the results depend on the processing

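The balance of peaks turned with stricter or equally long lists. In the 5 windows treated over untreated peaks had a log2 ratio of 0.078. It turned to -0.015 with equal numbers of peaks per list and to -0.097 at a −log10 q of at least 5. At that q it was -0.36 for CDKN1A, -0.14 for MDM2, -0.059 for GADD45A, -0.26 for FAS and 0 for the TNFRSF10 cluster. For GADD45A it was 0.042, -0.043 with equal numbers and 0.12 with wider windows. At that q the windows held 64 regions, of which 1 was gained, 4 lost and 2 crossed, and 0 shared regions were higher in both treated libraries by coverage and 7 by relative coverage. Merging peaks up to 150 bp apart left 1 lost region, and requiring 50% overlap gave 8 gained and 6 lost. On relative coverage the median log2 ratio of shared regions was -0.059 instead of -0.65, with 12 regions lower and 14 higher in both treated libraries instead of 31 and 2. At the MDM2 region at 69195252 the log2 ratio turned from -0.093 to 0.59. Shares over all regions are not given for the stricter or differently merged lists, and the cause of these changes was not tested.

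Leaving out 1 library keeps both groups but drops 1 requirement from the definitions of gained, lost, shared, lower and higher regions. The log2 ratio of peaks then ranged from 0 to 0.15 for the 5 windows (0 without treated replicate 2). It ranged from -0.32 to -0.059 for CDKN1A, 0.18 to 0.64 for MDM2 and 0 to 0.082 for GADD45A. For FAS the range was -0.061 to 0.20, and for the TNFRSF10 cluster -0.060 to 0.22. Gained regions numbered 6 to 20, highest without treated replicate 2, and lost regions 5 to 14, highest without untreated replicate 1. The median log2 coverage ratio ranged from -0.96 without treated replicate 2 to -0.36 without treated replicate 1. Regions lower in the treated libraries numbered 31 to 43 by coverage and 19 to 29 by relative coverage, and regions higher 3 to 11 and 16 to 22. The number of regions ranged from 111 to 126 and of shared regions from 54 to 58. Shares over all regions are not given for these omissions.

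With replicate number as a block, the log2 ratio of peaks in the 5 windows was 0.077 and the median log2 coverage ratio -0.69. There were 32 regions lower and 3 higher, so no direction changed. The labels do not say that a number marks a shared batch, and the deviations of same-numbered libraries had a correlation of -0.052 across shared regions. The number of reads is unknown, so depth limits on single regions could not be given.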
